A study of Mus musculus with 6 samples.

Results

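Cytosolic ribosomal protein genes encode the proteins that, with ribosomal RNA, build the small and the large subunit of the ribosome. The members were the protein-coding genes named Rpl or Rps with a number (optional letters a, l or x and a further digit allowed), together with Rplp0, Rplp1, Rplp2 and Rpsa, in the RefSeq gene table of GRCm38.p6 (mm10). Kinases of the Rps6k family were left out. The rule gave 85 of 21883 protein-coding genes, 32 of the small and 53 of the large subunit. All 85 have the names and coding status that the label calls for, but 8 of them (Rpl3l, Rpl7l1, Rpl10l, Rpl22l1, Rpl32l, Rpl36al, Rpl39l and Rps27l) carry an l in the symbol, which marks paralogues and similar copies that are not all part of every ribosome. Membership used names alone and no measured value.

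DNA ends were mapped by BrITL, in which the ends in permeabilised cells are tagged with biotin-ddUTP, the tagged fragments are captured on streptavidin beads, and their positions are read by sequencing. The cells were passage-immortalised mouse embryonic fibroblasts, ATR+/- and expressing Bcl-xL, in all 6 samples, controls included. So every sample had a reduced dose of Atr, the gene of the checkpoint kinase that guards stalled replication forks, and an added survival protein. One condition was DMSO for 18 h. The other, called treated here, was 1 µM of the inhibitor labelled ATR-45 with 0.2 µM aphidicolin, a DNA polymerase inhibitor, for 18 h. Both conditions were sampled with 2 pull-downs and 1 input, and the labels do not say whether the pull-downs came from separate cultures.

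The data are 1 pooled peak list per condition, with 6444 DMSO peaks and 491 treated peaks. No value per sample was at hand, so nothing here has a replicate error and no difference was tested. The 95% intervals beside shares are exact (Clopper-Pearson) and reflect counting error alone. The lists were not cut at a common strength: −log10 q went down to 18.5 for DMSO peaks but to 3.38 for treated peaks. A gene without a summit in a list may have had ends below that cut. The files hold no expression values, so the fibroblast label could not be checked by level. Of 10 fibroblast genes, 5 (50%) held a DMSO summit, beside 23.8% of all protein-coding genes. The highest fold was at Vim, the gene of the intermediate filament protein vimentin (23.1). The rest, among them the collagen genes of the list, held no DMSO summit. A treated summit was held by 0 of the 10, beside 1.16% of all protein-coding genes.

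Ribosomal protein genes are short, are transcribed at high rates in growing cells, and are regulated together. Their mRNAs begin with an unbroken stretch of pyrimidines at the 5′ end, the TOP motif, through which the growth-controlling mTOR pathway sets their translation. Many also carry genes of small nucleolar RNAs (snoRNAs), guides for rRNA modification, in their introns.

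In the DMSO list, 38 of the 85 genes (44.7%, interval 33.9 to 55.9%) had a peak summit in the gene body or within 1 kb of an end. Among all protein-coding genes the share was 23.8%, which would give 20.2 of 85. The members are shorter than most genes, with a median length of 3175 bp against 17170 bp, and so offer less room for a summit. Coding genes in the same range of length, 592 to 11774 bp, had a DMSO summit in 16.3% of cases. In the treated list, 0 of the 85 genes had a summit (interval 0 to 4.25%), beside 1.16% of all coding genes. That share would give 0.987 of 85 genes, so the count of 0 is near the background and is not a result about these genes. None of the 39 DMSO peaks at members overlapped a treated peak by 1 bp or more. Of all DMSO peaks in the members' range of fold, 1.15% did, which would give 0.447 of 39.

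**Figure D1:**
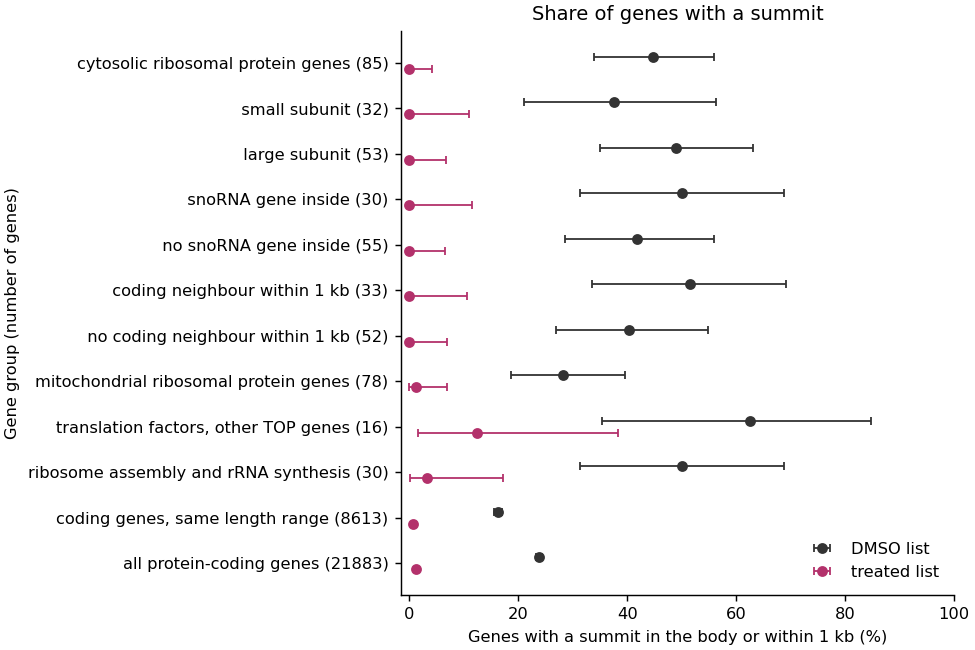
Share of genes (%, x axis) with a summit in the body or within 1 kb, by gene group (y axis, number of genes in brackets), for the DMSO list (dark) and the treated list (pink), with exact 95% intervals as bars. The cytosolic ribosomal protein genes lie at 44.7% (DMSO) and at 0 (treated), against 23.8% and 1.16% of all protein-coding genes.

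The size of the share followed the window. Within the gene body alone, 11 members (12.9%) held a DMSO summit, beside 13.2% of all coding genes, so by that rule the members were near the background of all genes. Among coding genes in the members' range of length the share was 8.03%, which would give 6.83 of 85. Their median length was 4290 bp against 3175 bp, so this set shares the range but is not matched for length. With 5 kb on each side 44 members (51.8%) had one, beside 26.6% of all coding genes. In the treated list the count with 5 kb was 0, beside 1.40%. The member just inside the 1 kb limit was Rpl13a, whose summit lay 744 bp from the gene, and the one just outside was Rpl10a, at 1652 bp. Between 1 and 5 kb lay the nearest summits of 6 members, namely Rpl10a, Rpl12, Rpl35a, Rpl24, Rpl38 and Rpl35.

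Over all members the median distance from the gene to the nearest DMSO summit was 3.15 kb, against 66.9 kb over all coding genes. For 22 members (25.9%) it was over 50 kb, against 54.2% of coding genes. Rps3a1, Rpl10l, Rps7 and Rpl39 were over 1 Mb from any DMSO summit. Rpl10l is an intronless copy used in the testis, whereas Rps7, Rps3a1 and Rpl39 are standard components. Genes of both kinds were thus among the most distant. The nearest treated summit to any member lay 29099 bp from Rpl7a, and the median distance was 2263 kb, against 2125 kb over all coding genes.

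**Figure D2:**
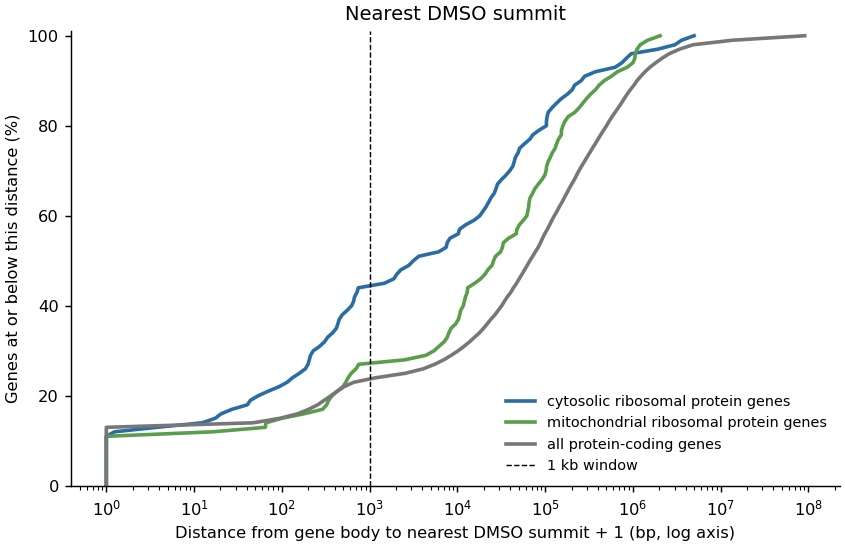
Cumulative share of genes (%, y axis) by distance from the gene body to the nearest DMSO summit (bp plus 1, log x axis), for cytosolic and mitochondrial ribosomal protein genes and all coding genes. The curve of the cytosolic genes parts from that of all coding genes before the 1 kb line, where it stands at 44.7% against 23.8%.

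The strength of the summits was moderate. Fold enrichment is the authors' ratio of the pooled pull-down over the background at the summit. For the strongest summit of each of the 38 genes it ran from 7.77 to 18.03, with a median of 10.7 (interval of the median 10.02 to 11.9). The median over all coding genes with a DMSO summit was 11.7, and over the whole list 10.99, in a list that reached 33.8. Of the 38 genes, 17 lay above the list median and 21 at or below it. Coverage at the summit, recovered from the caller's values, was 35 to 73 pull-down fragments with a median of 43.5, against 49 over all coding genes with a summit. Fewer than 45 fragments stood behind 20 of the 38 summits (52.6%), against 34.1% of coding genes with a summit. As the lowest coverage of any DMSO peak was 35 fragments, many of these genes lay close to the lower limit of the list. The background at the summit was the list's most common value, 2.32 on the caller's scale, for 30 of the 38 summits (78.9%). On that scale 1 pull-down fragment counts 0.805. Among those summits the fold follows the pull-down alone. The same held for 80.7% of all coding genes with a summit.

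Among small subunit genes, the highest folds were at Rps18 and Rps21, both 18.03 with 73 fragments, followed by Rps2 (15.8, 64 fragments) and Rps19 (14.4, 58 fragments). The summit counted for Rps18 lay 714 bp outside the gene and 204 bp from an end of B3galt4. Rps19 encodes a protein needed for small subunit maturation, and mutations of its human counterpart cause Diamond-Blackfan anaemia. Further values were 12.4 at Rps10, 11.9 at Rpsa, the gene of the laminin receptor precursor, and 10.99 at Rps23. The lower values of this subunit were at Rps12 and Rps29 (9.77 each), Rps28 (9.18) and Rps26 (8.80). Rps26, another gene of Diamond-Blackfan anaemia, stood at 35 fragments and −log10 q 18.5, which is the lowest −log10 q of the whole list. In all 12 of 32 small subunit genes (37.5%, interval 21.1 to 56.3%) had a summit, with a median fold of 12.2.

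In the large subunit, 26 of 53 genes (49.1%, interval 35.1 to 63.2%) had a summit, with a median fold of 10.5. The intervals of the shares of the 2 subunits overlap. The highest fold was at Rplp0, which encodes the base of the acidic stalk that recruits elongation factors (15.8, 64 fragments). Of the other stalk genes, Rplp1 had a fold of 8.30 and Rplp2 had no summit within 17304 bp. Next were Rpl41, the gene of a very short basic protein (13.9), Rpl13a (13.3), Rpl37 (13.2), Rpl7a (12.7) and Rpl22 (12.2). The summits counted for Rpl41, Rpl13a and Rpl37 lay closer to an end of another coding gene than to an end of the member. Rpl3, whose product reaches towards the peptidyl transferase centre, stood at 11.7. Of the genes for the 5S particle, which binds Mdm2 when ribosome assembly is disturbed, Rpl5 had a summit (9.53, 38 fragments) and Rpl11 had none within 27473 bp. The lowest folds were at Rpl27a (9.29), Rpl34 (8.91), Rplp1 (8.30) and Rpl7l1 (7.77).

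**Figure D3:**
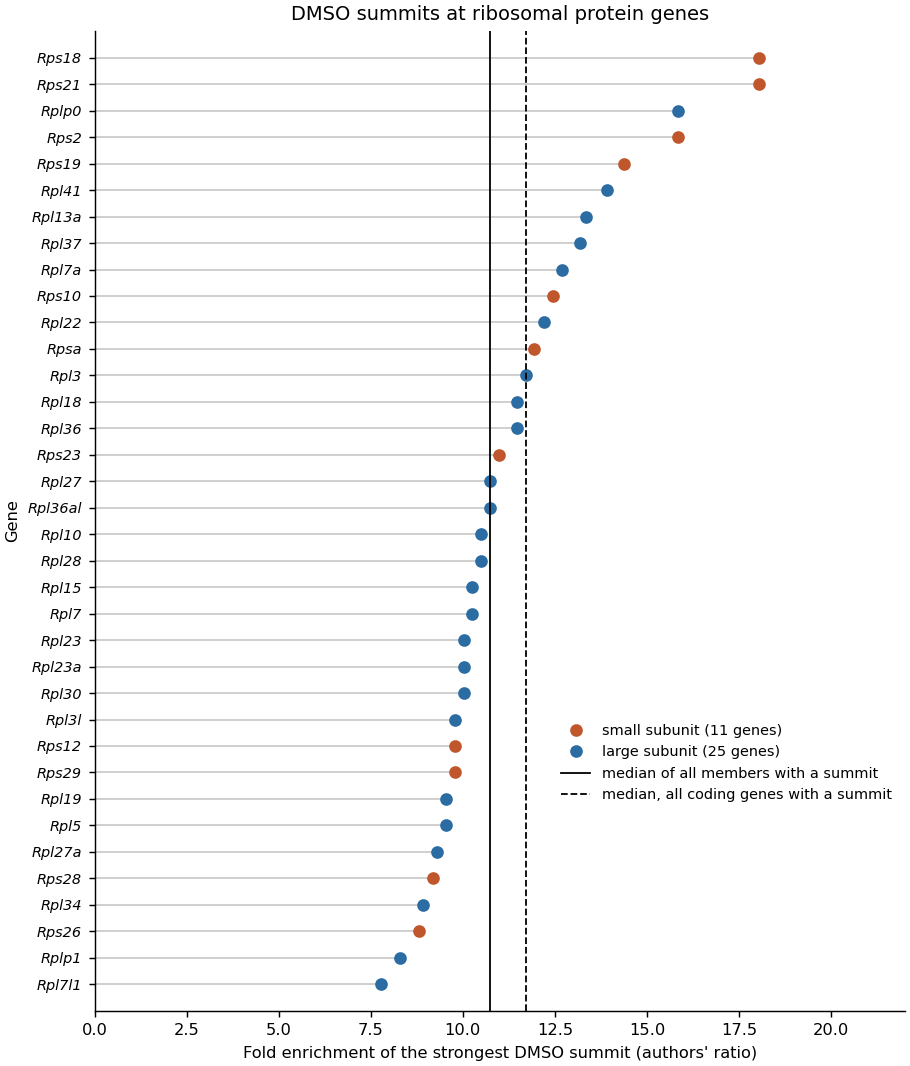
Fold enrichment of the strongest DMSO summit (x axis, the authors' ratio) at 36 of the 38 genes with one (y axis), coloured by subunit, with the median of all 38 genes (solid line, 10.7) and of all coding genes with a summit (dashed line, 11.7). Rps18 and Rps21 lie furthest to the right at 18.03, and Rpl7l1 is lowest at 7.77. For 9 of the 38 genes, Rps18 and Rpl7l1 among them, the summit was closer to an end of another coding gene.

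The 47 members without a DMSO summit included well known genes of both subunits. In the small subunit they included Rps3, Rps3a1, Rps4x, Rps6, Rps7, Rps9, Rps13, Rps14, Rps15, Rps15a, Rps16, Rps20, Rps24, Rps25, Rps27, Rps27a and Rps27l. Rps6 encodes the classic substrate of S6 kinases, and Rps27a encodes a ubiquitin fusion. Their nearest DMSO summits lay 105477 bp and 144775 bp away. In the large subunit they were Rpl4, Rpl6, Rpl8, Rpl9, Rpl10a, Rpl10l, Rpl11, Rpl12, Rpl13, Rpl14, Rpl17, Rpl21, Rpl22l1, Rpl24, Rpl26, Rpl29, Rpl31, Rpl32, Rpl32l, Rpl35, Rpl35a, Rpl36a, Rpl37a, Rpl38, Rpl39, Rpl39l and Rplp2. Of the 8 genes with an l in the symbol, 3 had a summit (Rpl36al, Rpl3l and Rpl7l1), and without all 8 the share was 35 of 77 (45.5%).

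Where strand was known, most summits lay at the start of the gene. The RefSeq promoter table lists start sites for 65 of the 85 members and for 29 of the 38 with a summit. Relative to the nearest listed start, the strongest summits had a median position of -14 bp (interval of the median -126 to 150 bp; negative values lie upstream). Within 500 bp of the start lay 22 of 29 (75.9%), beside 69.4% of coding genes with a summit and a listed start. Within 1000 bp the order turned, with 23 of 29 (79.3%) beside 84.9%. The peak covered the start in 27 of 29 genes (93.1%), beside 85.8%. Around the 29 starts the peaks reached a median of 1330 bp upstream and 1400 bp downstream. Over all 38 genes the strongest peaks were 1231 to 8003 bp wide with a median of 2943 bp, against 2965 bp over all coding genes. The nearest to the start were the summits of Rpl27 (-3 bp), Rplp0 (13 bp), Rps23 (-14 bp), Rps10 (-18 bp), Rpl28 (-21 bp) and Rpl19 (22 bp). Because the genes are so short, a peak often held much of the gene. The median share of the gene body covered by the strongest peak was 44.6%, against 6.51% over all coding genes with a summit. Of the 38 genes, 5 were covered whole, among them Rps18, Rps21, Rpl41 and Rpl13a, beside 113 of 5213 coding genes. Those coding genes were not matched for length.

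**Figure D4:**
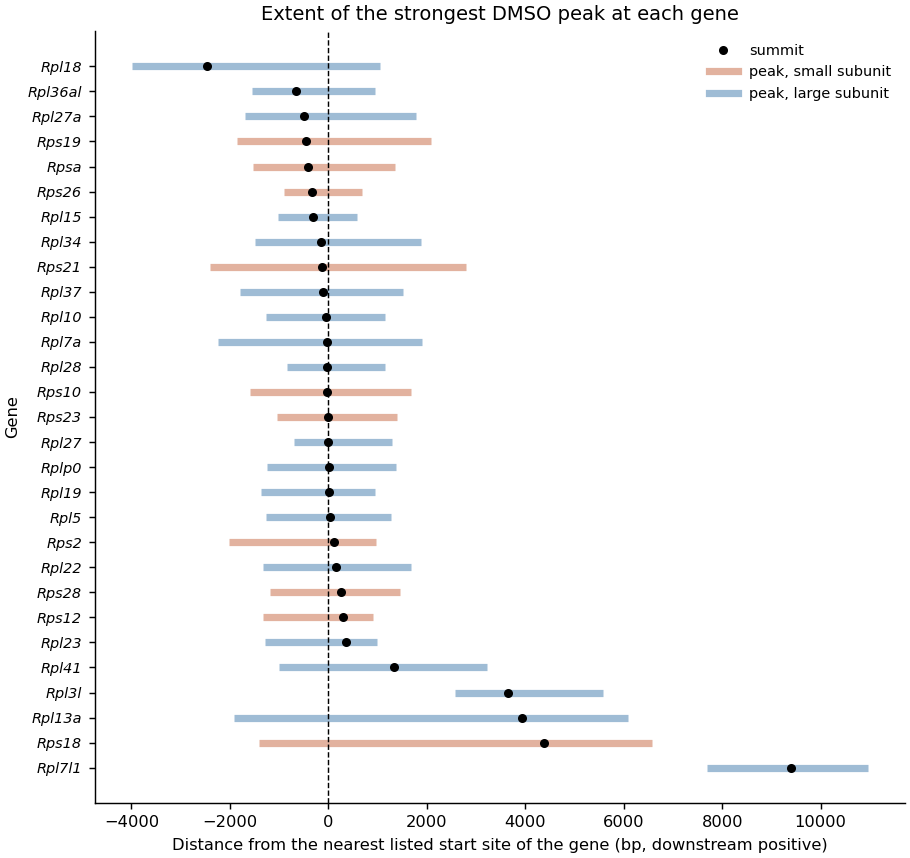
Extent of the strongest DMSO peak (bars, coloured by subunit) and its summit (points) at the 29 genes with a listed start, by distance from the nearest listed start (x axis, bp, downstream positive). Bars of 27 genes cross the start, and those of Rpl3l and Rpl7l1 lie beyond it.

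The other 7 summits lay over 500 bp from a listed start, several of them beyond the gene and close to a neighbour. The summit at Rpl7l1 lay 9407 bp downstream of its start, past the other end of the gene and 158 bp from an end of 2310039H08Rik. That of Rpl3l, a paralogue of Rpl3 known from striated muscle, lay 3648 bp downstream, 190 bp past the gene and 260 bp from an end of Msrb1. At Rps18 the peak of 7990 bp covered the whole gene, but its summit lay 4381 bp downstream of the start and 204 bp from an end of B3galt4. At Rpl41 the summit was 1325 bp downstream and 165 bp from Zc3h10. The summit at Rpl36al lay 654 bp upstream and 563 bp from Mgat2. At Rpl18 the nearest listed start was an inner one (-2459 bp), while the summit lay 145 bp inside the outer end of the gene. At Rpl13a the summit lay 3926 bp downstream of the start and 744 bp past the gene. A peak can serve more than 1 gene, and 39 distinct summits stood for the 40 pairs of member and summit.

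In all, the strongest summit of 9 of the 38 genes was closer to an end of another coding gene than to an end of the member. These were Rps18, Rpl41, Rpl13a, Rpl37 (57 bp from Card6), Rpl36 (417 bp from Lonp1), Rpl36al, Rpl15 (161 bp from Nkiras1), Rpl7l1 and Rpl19. The last is an exception in kind, because its summit lay 22 bp from a listed inner start of Rpl19 itself. Another coding gene also had the summit within 1 kb for 14 of the 38, and for 24 no other coding gene did. Counting each summit for its nearest coding gene alone left 30 members (35.3%), beside 20.4% of all coding genes. Members with another coding gene within 1 kb had a summit in 17 of 33 cases (51.5%, interval 33.5 to 69.2%), and those without in 21 of 52 (40.4%, interval 27.0 to 54.9%). Which gene of a close pair the ends belong to cannot be told apart from peak positions.

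Rps2 and Rpl36 held 2 DMSO summits each. At Rps2 the stronger one (15.8) lay 113 bp downstream of the listed start, and the weaker (10.02, 40 fragments) lay 762 bp past the gene and 629 bp from Ndufb10. At Rpl36 one summit lay 468 bp beyond one end (11.5, 417 bp from Lonp1) and the other 217 bp beyond the opposite end (9.77, 106 bp from Micos13). The other 36 genes held 1 each.

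Genes with and without a DMSO summit were compared by properties the peaks had no part in. A snoRNA gene lay inside 30 members, of which 15 had a summit (50%, interval 31.3 to 68.7%), against 23 of the 55 others (41.8%, interval 28.7 to 55.9%). Those intervals overlap. Rpl4, with 5 snoRNA genes inside, had no summit, whereas Rpl7a and Rpl13a, with 4 each, did. Median gene length was 3170 bp in genes with a summit and 3230 bp in genes without. Within 50 kb lay a median of 4.5 other coding genes (range 1 to 10) around members with a summit and 3 (range 0 to 11) around those without. By chromosome, 7 of 8 members on chromosome 17 had a summit (all but Rpl10a), beside 34.5% of the coding genes there. On chromosome 7 it was 6 of 14, beside 17.8% of coding genes there, and on chromosome 9 it was 2 of 7, beside 17.2%. On chromosome 16 it was 0 of 3, beside 18.0%, a count too small to set apart from that share. Members were also below the share of coding genes on chromosomes 4 (1 of 5, beside 27.0%) and 3 (1 of 4, beside 27.4%). The same held on chromosomes 18 (0 of 2, beside 24.3%) and 6 (0 of 1, beside 27.0%). On every other chromosome with members, their share was the higher one. On X, Rpl10 was the single member of 4 with a summit, on a chromosome where 3.42% of coding genes had one.

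Promoter sequences are described because 27 of 29 peaks crossed the start, beside 85.8% of coding genes with a summit and a listed start. A link between promoter sequence and the DNA ends was not tested. Below are the bases from 60 before to 20 after a listed start (RefSeq, GRCm38.p6), 5′ to 3′ on the gene's strand, for genes of high DMSO fold. Capitals mark the longest unbroken run of pyrimidines that touches the 5 bases on either side of the start, the place where a TOP motif would begin.
Rps21 (chr2:180257319-180257398, plus strand): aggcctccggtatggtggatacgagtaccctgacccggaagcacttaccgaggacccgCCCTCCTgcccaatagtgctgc
Rplp0 (chr5:115559407-115559486, plus strand): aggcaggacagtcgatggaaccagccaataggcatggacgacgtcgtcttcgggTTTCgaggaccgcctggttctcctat
Rps2 (chr17:24720003-24720082, plus strand): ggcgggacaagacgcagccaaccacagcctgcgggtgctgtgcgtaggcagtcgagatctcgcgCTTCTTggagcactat
Rps19 (chr7:24884532-24884611, plus strand): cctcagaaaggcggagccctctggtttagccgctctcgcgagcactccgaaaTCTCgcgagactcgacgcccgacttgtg
Rpl41 (chr10:128549149-128549228, minus strand): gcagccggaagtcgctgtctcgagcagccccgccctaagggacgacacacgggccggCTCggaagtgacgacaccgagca
Rps18 (chr17:33955646-33955725, minus strand): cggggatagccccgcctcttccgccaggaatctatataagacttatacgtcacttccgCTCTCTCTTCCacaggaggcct
Rpl13a (chr7:45128726-45128805, minus strand): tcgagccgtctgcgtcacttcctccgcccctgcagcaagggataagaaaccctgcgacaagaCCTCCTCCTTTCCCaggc
Rpl37 (chr15:5116553-5116632, plus strand): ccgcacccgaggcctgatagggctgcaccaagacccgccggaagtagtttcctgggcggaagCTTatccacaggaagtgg
Rpl7a (chr2:26910747-26910826, plus strand): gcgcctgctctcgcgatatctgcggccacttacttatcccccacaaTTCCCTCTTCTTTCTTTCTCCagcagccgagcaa

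The same stretch is given for genes far from any DMSO summit, chosen after their distances were seen, so that both kinds can be compared.
Rps7 (chr12:28635934-28636013, minus strand): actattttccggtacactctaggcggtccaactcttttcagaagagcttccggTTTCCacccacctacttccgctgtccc
Rpl39 (chrX:37085203-37085282, minus strand): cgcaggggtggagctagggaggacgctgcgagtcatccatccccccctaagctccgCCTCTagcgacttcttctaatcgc
Rps3a1 (chr3:86142649-86142728, minus strand): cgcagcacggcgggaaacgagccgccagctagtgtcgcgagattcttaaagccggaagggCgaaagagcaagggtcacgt
Rps4x (chrX:102189372-102189451, minus strand): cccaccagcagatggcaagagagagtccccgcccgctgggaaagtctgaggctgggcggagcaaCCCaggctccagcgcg

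The run of pyrimidines was 7 bases in Rps21, 11 in Rps18, 14 in Rpl13a and 21 in Rpl7a, but 6 in Rps2, 4 in Rplp0 and Rps19, and 3 in Rpl41 and Rpl37. In Rps7 and Rpl39 it was 5, in Rps4x 3 and in Rps3a1 1. Rpl10l and Rpl22l1, not printed above, lay farther from any DMSO summit than Rps4x and had runs of 4 and 10 bases. The listed starts can be some bases off the true start, which shortens a run or moves it away. Over the 65 members with a listed start, 27 (41.5%) had a run of at least 7 bases there, against 13.9% of 17491 coding promoters. With a DMSO summit the count was 10 of 29 (34.5%), and without one 17 of 36 (47.2%). Thus the run was more frequent in members than in coding genes at large, and its share was not higher in members with a summit. The short forms TCTTTCC and CTTTCC, read on the gene's strand within 20 bases of the start, were found in 4 (6.15%) and 10 (15.4%) of the 65 members, against 0.429% and 1.90% of all coding promoters. The shorter form lies inside the longer.

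Base composition was compared over the window from 250 bases before to 50 after the start. In members with a summit the median G and C content was 60.3% with 24 CG dinucleotides, and in members without it was 55.2% with 21. Among all coding genes the medians were 63.7% with 24 CG dinucleotides for promoters of genes with a summit, and 53.3% with 8 for those without. Members without a summit thus had nearly as many CG dinucleotides as members with one, unlike coding genes at large. The range was wide, from 34.7% in Rpl32l to 72.3% in Rps10, and Rps26 had a summit at 44.3%. Motifs were searched on both strands of the same window, and a match is a description of letters alone. GGGCGG, the core bound by Sp and KLF factors, was in 20 of 29 promoters with a summit (69.0%) and 19 of 36 without (52.8%), against 46.3% of all coding promoters. Split in the same way, coding promoters held it in 73.2% of genes with a summit and 37.6% of genes without, a wider gap than among the members. CCGGAAG, of ETS factors, was in 11 of 29 (37.9%) and 14 of 36 (38.9%), against 17.3% of coding promoters with a summit and 10.2% without. AAGATGGC, of YY1, was in 3 of each (10.3% and 8.33%), against 4.91% and 2.65% of coding promoters. TATAAA was in 4 of each (13.8% and 11.1%), against 5.56% and 15.9%. None of these gaps was tested.

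**Figure D5:**
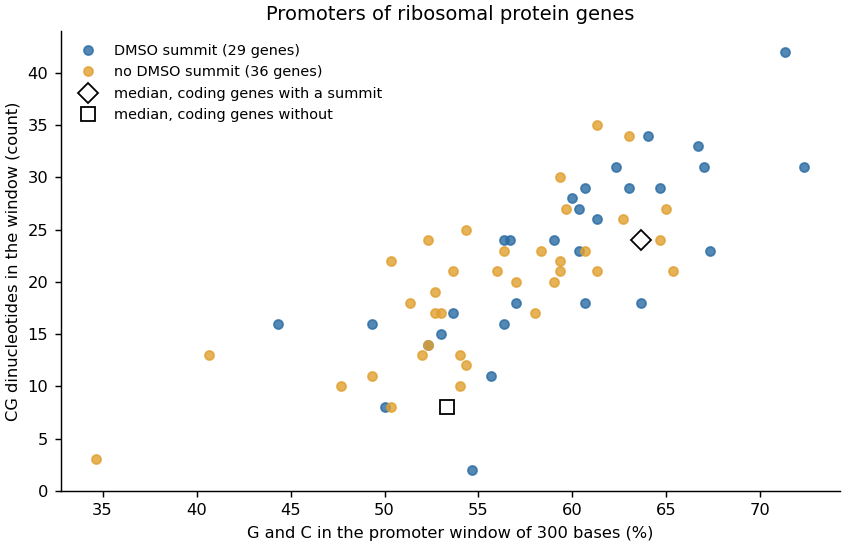
G and C content (%, x axis) and number of CG dinucleotides (y axis) in the promoter window (250 bases before to 50 after the start) of 65 members, with (blue, 29) and without (orange, 36) a DMSO summit. Open marks show the medians of all coding genes with (diamond, 63.7% and 24) and without (square, 53.3% and 8) a summit, and points of both colours spread over the same area.

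Other genes of the pathway gave a setting for these counts. Beside them stand the shares of all protein-coding genes, 23.8% with a DMSO summit and 1.16% with a treated one. Of the ribosomal proteins known by other names, Fau, which encodes a ubiquitin-like fusion with a small subunit protein, held a DMSO summit (fold 10.9), and Rack1 did not. Translation factors and other genes whose mRNAs have a TOP motif had a DMSO summit in 10 of 16 cases (62.5%, interval 35.4 to 84.8%), with a median fold of 15.97. The highest were Hnrnpa1 (21.9), Eef1a1, the elongation factor that delivers aminoacyl-tRNA (21.4), and Eef1g (17.3), Eef2 (16.5) and Eif4b (16.3). Treated summits were at Eef1a1 (fold 5.03) and at Eef1b2 (5.03), which had no DMSO summit. In genes of ribosome assembly and rRNA synthesis the count was 15 of 30 (50%, interval 31.3 to 68.7%), with a median fold of 12.9. The highest were Nop56, a core protein of box C/D snoRNA particles (18.8), Bop1 (17.8) and Nop14 (16.3), and Ubtf, which binds rRNA gene promoters, stood at 15.8. One of the 30, Nop56, had a treated summit (5.0). The 30 also included Mdm2, to which the 5S particle binds but which is not itself an assembly gene. Mdm2 is among the 15 with a DMSO summit (11.96). Mitochondrial ribosomal protein genes, which are made in the same cells but regulated apart, had a DMSO summit in 22 of 78 cases (28.2%, interval 18.6 to 39.5%), with a median fold of 11.1. Mrps18b held the 1 treated summit of that group (5.70), which is 1.28% of its genes. Both shares of the mitochondrial group are near those of all coding genes. Folds of the treated list are not comparable with those of the DMSO list.

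Ribosomal protein genes have many processed copies elsewhere in the genome, and the handling of reads that match several places was not given in the sources used here. Of 318 pseudogenes named after members in the table, 1 (Rpl21-ps8, 0.314%) had a DMSO summit in the body or within 1 kb and 0 had a treated one, beside 0.508% and 0.0767% of all 10429 pseudogenes. The part of ambiguous reads in the members' peaks was not tested.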

How the data were processed

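BrITL pull-down and input samples of DMSO and ATR-45 with aphidicolin cells were used as 1 pooled peak list each, since the names of the deposited peaks set all pull-downs of a condition against all its inputs. The submitters' processing notes name MACS2 2.1.0, Picard 1.141, STAR 2.5.2a, SAMtools 0.1.19, bcl2fastq 2.17.1.14 and the build mm10, with no role or setting for any. The authors' deposited fold (a ratio at the summit), −log10 p and −log10 q were used as given. The authors' deposited score equals the whole part of 10 times −log10 p and was not used further. What a peak needed to be listed was not given in the sources used here.

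Summits were assigned to every RefSeq gene (GRCm38.p6) whose body, with 1 kb on each side, held them. Pull-down coverage and background were solved from fold (pile-up plus 1 over background plus 1) and Poisson p. Whole multiples of the scaling step within 0.02 were accepted, which held for 100% of DMSO peaks. Totals of reads per sample were not at hand. Counting and coverage code was tested on simulated data.

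Named genes are members with a treated summit, the 10 highest and 5 lowest DMSO folds, those with 2 summits, those nearest the 1 kb limit, and up to 5 per further list. Further members were added to describe roles and positions after their values were seen, as was Mrps18b. The members and lists were chosen with earlier results of these data known. Alternatives varied the window, peak strength, overlap rule, members and start site. Scripts ran on Python 3.11.15 with pandas 2.3.3, SciPy 1.17.1, NumPy 2.4.6 and Matplotlib 3.10.9. A few genes of these lists are not reported here by name, but are part of all counts and medians. Start sites came from the RefSeq promoter table, which matched 65 of 85 members.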

Additional observations from a re-analysis of the deposited data

How the results depend on the processing

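The number of members with a DMSO summit was 38 and fell to 11 in the gene body alone. It fell to 17 with peaks at or above the median fold of the list and to 14 at −log10 q of at least 30. All coding genes gave 13.2%, 14.3% and 11.7% under these settings, against 12.9%, 20% and 16.5% of members. Coding genes in the members' range of length gave 8.03% in the body alone, a background added after seeing the data. Of 85 members it was 33 with 500 bp (38.8% beside 21.9% of coding genes), 44 with 5 kb (51.8% beside 26.6%), 43 with 1 bp of overlap (50.6% beside 25.1%), 39 with 0.5 of the peak (45.9% beside 23.8%) and 30 with the nearest gene alone (35.3% beside 20.4%). Without paralogues it was 35 of 77 (45.5% beside 23.8%). The number with a treated summit was 0 under all 9 settings. The median fold stayed between 10.6 and 10.9, and the median distance from the start between -14 and 39 bp, the outer gene end (13 bp) being added after seeing the data. No paired analysis was possible because each condition has 1 pooled list. The lower limit of 35 fragments in the DMSO list bounds what could be seen at genes without a summit.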
